A study of Mus musculus with 10 samples.

Results

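The histone deacetylase genes studied here are Hdac1, Hdac2, Hdac3, Hdac4, Hdac5, Hdac6, Hdac7, Hdac8, Hdac9 and Hdac11. They were taken by symbol from the deposited table of gene counts, whatever their values, and make up 10 of the 29883 genes in it. Hdac10 is not part of this set. The table holds 1 poly-A RNA library from the nucleus accumbens (NAc), a part of the ventral striatum, of each of 10 male mice. Both groups were ethanol-naive inbred mice without a transgene, 9 weeks old, namely 5 C57BL/6J (B6) and 5 DBA/2J (D2) mice. The strains differ in their behavioural responses to ethanol, and the comparison here asks whether their accumbens differed at baseline in the mRNA of these enzymes.

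Histone deacetylases remove acetyl groups from lysines, and their removal from histone tails is in general linked to more compact chromatin and lower transcription. Class I enzymes (Hdac1, Hdac2, Hdac3 and Hdac8) are largely nuclear, and all but Hdac8 work within corepressor complexes such as SIN3, NuRD, CoREST and NCoR/SMRT. Class IIa enzymes (Hdac4, Hdac5, Hdac7 and Hdac9) have little catalytic activity of their own, repress transcription factors of the MEF2 family, and are moved out of the nucleus after phosphorylation and binding to 14-3-3 proteins. Hdac6 (class IIb) is a cytoplasmic deacetylase of tubulin, and Hdac11 is the sole enzyme of class IV. In the brain, these enzymes have been studied for their part in memory, in the response to drugs of abuse and in myelination.

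Between 96977262 and 116776714 reads per library had been counted on genes. The 2 libraries of B6 replicates 3 and 5 stood apart from the other B6 libraries in the genes of cortical neurons. The summed normalized counts of 8 such marker genes were 105874 and 107576 in these mice, between 15447 and 24121 in the other 3 B6 mice, and between 31578 and 70873 in the D2 mice. Striatal neuron markers, which define the labelled tissue, were detected in every library. Of the 10, 6 were lower in D2 at an adjusted p under 0.05 (edgeR, as below), and 7 had an unadjusted p under 0.05. The median log2 fold change of the list was -0.30, with summed counts between 526791 and 675938 in B6 and between 444210 and 537642 in D2. Of 8 oligodendrocyte markers, 5 were lower in D2 at the same adjusted threshold, and all 8 had an unadjusted p under 0.05. Their median log2 fold change was -0.35, with summed counts between 478668 and 689544 in B6 and between 361367 and 528654 in D2. Over all genes, 9.83% passed as lower in D2. The part of striatal neurons and oligodendrocytes in the results below was not tested, and in tissue RNA fewer cells of a type and less RNA per cell cannot be told apart. Values without B6 replicates 3 and 5, and with the cortical marker level as a covariate, are given where they differ. Without these replicates, every remaining B6 mouse lies below every D2 mouse in the cortical markers. Strain and cortical marker level therefore cannot be told apart in that fit.

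All 10 genes were clearly detected, with between 1131 and 28804 normalized counts per mouse (counts scaled to a common library size after TMM normalization). Levels of different genes were compared as RPKM, that is counts per kilobase of merged exon, scaled to the TMM-adjusted library size. Hdac11 had the highest level, at 60.0 ± 3.79 RPKM among B6 mice and 62.3 ± 2.20 among D2 mice (mean ± SD, n = 5), and made up 44.2% of the summed level of the 10 genes in B6 and 45.0% in D2. Below it came Hdac3 (19.5 ± 0.748 in B6 and 20.6 ± 0.493 in D2) and Hdac5 (17.6 ± 0.979 and 17.5 ± 0.904), whose ranges overlapped in B6 but not in D2.

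Hdac2 followed with 14.2 ± 0.465 RPKM in B6 and 13.5 ± 0.226 in D2, and Hdac6 with 9.01 ± 0.385 and 9.52 ± 0.245. Hdac1 and Hdac7 lay next to each other at 5.33 ± 0.324 and 4.39 ± 0.233 in B6. In D2 the levels of these 2 genes, 4.30 ± 0.146 and 4.02 ± 0.253, overlapped between mice. The lowest levels were those of Hdac4 (2.40 ± 0.0922 in B6 and 3.11 ± 0.133 in D2), Hdac9 (1.75 ± 0.228 and 2.00 ± 0.174) and Hdac8 (1.41 ± 0.113 and 1.43 ± 0.0494), so that the highest and the lowest gene were 43.0-fold apart. All other neighbours in this order were separated in both strains. The summed level was 136 ± 4.44 RPKM in B6 and 138 ± 3.21 in D2. Class I held 29.9% of it in B6 and 28.8% in D2, and class IIa 19.3% and 19.2%.

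**Figure D1:**
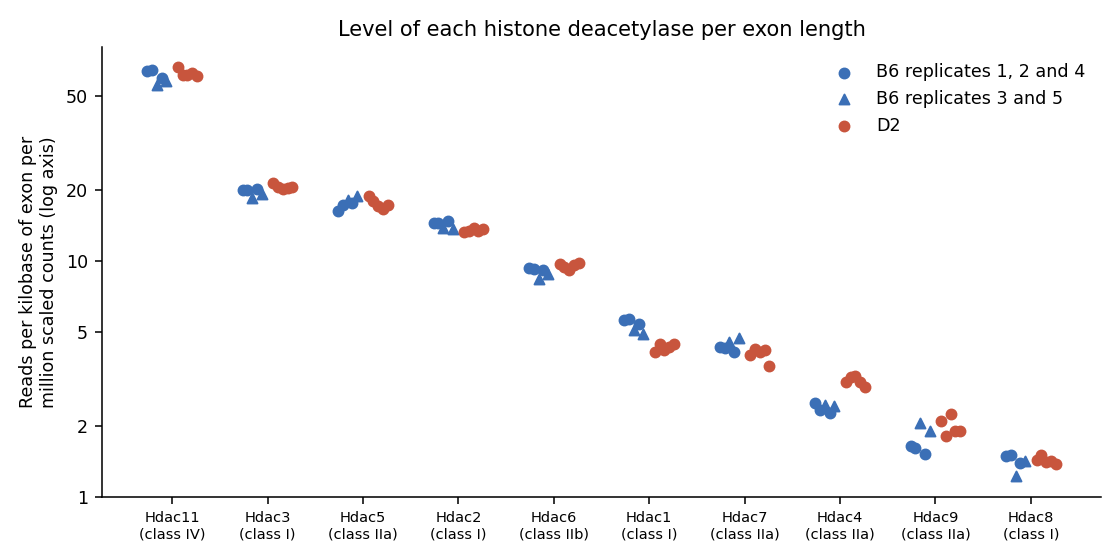
Level of each histone deacetylase in every mouse, in RPKM on a log axis, ordered by the mean over all 10 mice. Points are mice (B6 blue, with replicates 3 and 5 as triangles, D2 red). Hdac11 has the highest mean, 61.2 RPKM, and Hdac8 the lowest, 1.42.

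In the comparison of D2 with B6 across all genes (edgeR's quasi-likelihood test, Benjamini-Hochberg adjustment), 2 of the 10 histone deacetylases passed an adjusted p of 0.05. Hdac4 was 29.7% higher in D2, and Hdac1 was 19.3% lower. This count was close to the background, since 18.3% of all 29883 genes passed (8.5% as higher and 9.83% as lower in D2), and 22.4% of the 10049 genes with a mean between 1000 and 30000 normalized counts, the range of these enzymes. The other 8 genes had log2 fold changes of at most 0.19 in size. Of those 8, 5 had an unadjusted p under 0.05 (in all 7 of the 10 genes, against 29.4% of all genes) without passing the adjustment. The median absolute log2 fold change was 0.08 for the 10 enzymes and 0.08 for all genes in that range of counts. The normalized counts of 3 enzymes, Hdac1, Hdac3 and Hdac4, did not overlap between the strains, which held for 16% of all genes. The shares of 29.4% and 16% cover genes of any level and were not taken for that range of counts alone. Neither count of enzymes is therefore read as an excess.

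**Figure D2:**
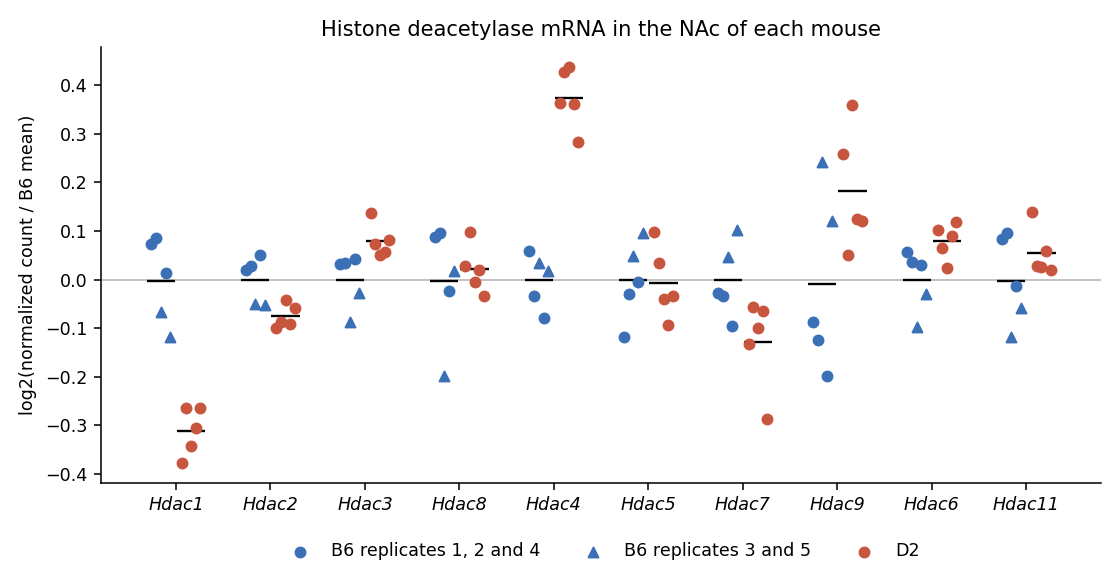
Normalized count of each histone deacetylase in every mouse, as log2 of its ratio to the B6 mean. Points are mice (B6 blue, with replicates 3 and 5 as triangles, D2 red) and lines are strain means of these log2 values. All D2 mice lie below all B6 mice for Hdac1 and above them for Hdac4 and Hdac3.

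Among the class I enzymes, Hdac1 (ENSMUSG00000028800, chromosome 4 of GRCm39, 129409895 to 129436631, reverse strand) encodes a catalytic subunit of the SIN3, NuRD and CoREST complexes. Its normalized counts were 2824, 2849, 2562, 2710 and 2474 in B6 replicates 1 to 5, and 2066, 2236, 2118, 2171 and 2234 in the D2 mice. Every D2 mouse was below every B6 mouse, and B6 replicates 3 and 5 were the lowest of their strain. D2 thus had a log2 fold change of -0.31 relative to B6 (standard error 0.048, adjusted p = 0.00047 from edgeR). It was -0.37 without B6 replicates 3 and 5, and -0.28 with the cortical marker level as a covariate, and passed in both fits.

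Hdac2 (ENSMUSG00000019777), the close paralog of Hdac1 in the same complexes, had counts of 9026, 9079, 8599, 9214 and 8582 in B6 and of 8312, 8382, 8644, 8358 and 8551 in D2. The D2 mice lay below B6 replicates 1, 2 and 4 and overlapped with replicates 3 and 5. The log2 fold change was -0.07 (standard error 0.031, edgeR adjusted p = 0.12). Without B6 replicates 3 and 5 it was -0.11, which passed (adjusted p = 0.028), where 19.2% of all genes did.

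Hdac3 (ENSMUSG00000024454), the catalytic subunit of the NCoR and SMRT complexes, had counts of 9463, 9475, 8705, 9531 and 9075 in B6 and of 10166, 9735, 9575, 9620 and 9791 in D2. No B6 mouse reached the lowest D2 mouse, but the closest pair, 9531 and 9575, differed by little, and the log2 fold change of 0.08 did not pass (standard error 0.034, edgeR adjusted p = 0.13). With the cortical marker level as a covariate it was 0.10 and passed (adjusted p = 0.017), where 26.1% of all genes did, and without B6 replicates 3 and 5 it was 0.04 (adjusted p = 0.45). Hdac8 (ENSMUSG00000067567, X chromosome), a class I enzyme that deacetylates the cohesin subunit SMC3, ranged from 1131 to 1388 in B6 and from 1268 to 1390 in D2, with a log2 fold change of 0.02 (standard error 0.060, adjusted p = 0.86).

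Among the class IIa enzymes, Hdac4 (ENSMUSG00000026313, chromosome 1 of GRCm39, 91855937 to 92123421, reverse strand), a repressor of MEF2-dependent transcription, showed the largest strain difference of the family. Its normalized counts were 4608, 4320, 4531, 4186 and 4479 in B6 replicates 1 to 5, and 5689, 5945, 5990, 5683 and 5380 in D2. The lowest D2 mouse was well above the highest B6 mouse, and B6 replicates 3 and 5 lay among the other B6 mice. The log2 fold change was 0.37 (standard error 0.039, edgeR adjusted p = 1.7e-05), and it was 0.39 without B6 replicates 3 and 5 and 0.37 with the cortical marker level as a covariate.

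Hdac5 (ENSMUSG00000008855), which is regulated by neuronal activity and has been studied in the striatal response to cocaine, had the highest counts of its class. They ranged from 16428 to 19049 in B6 and from 16715 to 19082 in D2, with nearly equal means and a log2 fold change of -0.01 (standard error 0.047, edgeR adjusted p = 0.96). Hdac7 (ENSMUSG00000022475), known for its role in endothelium and thymocytes, had counts of 4611, 4590, 4849, 4397 and 5038 in B6 and of 4282, 4514, 4386, 4493 and 3851 in D2. The strains overlapped, and the log2 fold change of -0.13 did not pass (standard error 0.050, adjusted p = 0.11), although it did at -0.15 with the cortical marker level as a covariate (adjusted p = 0.018). Without B6 replicates 3 and 5 it was -0.08 (adjusted p = 0.37). Of 7 endothelial markers, 0 passed in edgeR's test, 3 had an unadjusted p under 0.05 and 2 passed in DESeq2, with summed counts between 21939 and 26835 in B6 and between 18055 and 24049 in D2.

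Exons of Hdac5 and Hdac7 share bases with a gene on the opposite strand. This held for 30% of the merged exon bases of Hdac5, shared with G6pc3 (a further 1.18% lay under the microRNA gene Mir8101), and for 24.1% of those of Hdac7, shared with Slc48a1. The libraries were stranded but the strand setting of the counting is not given in the sources used here, so the counts of Hdac5 and Hdac7 are uncertain. The share of bases does not give the size of this uncertainty. G6pc3 had a mean of 3466 normalized counts and Slc48a1 one of 12046. The merged exons of Hdac11 shared 14.7% of their bases with Gm44002, an antisense transcript with a mean of 5.82 normalized counts. They also shared 2.89% with Gm14573, a long noncoding RNA gene on the opposite strand that has no counts in these data. Exons of the other 7 members shared no base with another annotated gene.

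Hdac9 (ENSMUSG00000004698), which is abundant in cortical neurons and also has a short form without the deacetylase domain, varied most between mice of a strain. Its counts were 2790, 2720, 3504, 2581 and 3222 in B6 and 3543, 3070, 3801, 3229 and 3222 in D2, a coefficient of variation of 13% and 8.74%. B6 replicates 3 and 5, the mice with the high cortical markers, lay within the range of the D2 mice, and the other 3 B6 mice lay below every D2 mouse. Over all mice the log2 fold change was 0.19 (standard error 0.085, edgeR adjusted p = 0.17). Without replicate 3 it was 0.25 (adjusted p = 0.045), and without replicates 3 and 5 it was 0.32 (adjusted p = 0.0042), while with the cortical marker level as a covariate it was 0.15 (adjusted p = 0.11). Whether Hdac9 passed thus depended on how these 2 mice were treated. In the fit without both mice, strain and cortical marker level cannot be told apart.

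Hdac6 (ENSMUSG00000031161, X chromosome), the tubulin deacetylase of class IIb, had counts of 7504, 7392, 6745, 7359 and 7062 in B6 and of 7739, 7540, 7330, 7679 and 7835 in D2. B6 replicates 3 and 5 were the lowest of the 10 mice, and the other B6 mice overlapped with D2 (log2 fold change 0.08, standard error 0.036, edgeR adjusted p = 0.16). Hdac11 (ENSMUSG00000034245), the class IV enzyme that also removes long fatty acyl groups, had counts of 27706, 27937, 24102, 25895 and 25117 in B6 and of 28804, 26665, 26623, 27237 and 26501 in D2. The strains overlapped (log2 fold change 0.05, standard error 0.046, adjusted p = 0.48). With the cortical marker level as a covariate both passed, Hdac6 at 0.10 (adjusted p = 0.019) and Hdac11 at 0.08 (adjusted p = 0.047), whereas without B6 replicates 3 and 5 the values were 0.04 and -0.002 and neither passed.

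**Figure D3:**
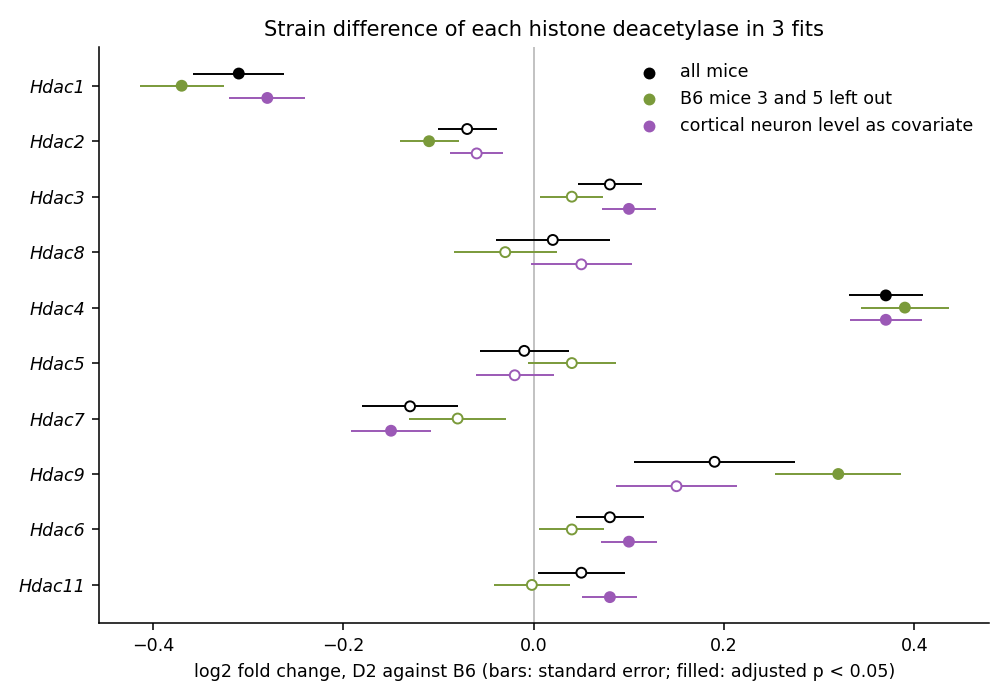
Log2 fold change of D2 against B6 for each histone deacetylase, with its standard error, over all mice, without B6 replicates 3 and 5, and with the cortical neuron marker level as a covariate. Filled points passed an adjusted p of 0.05. Hdac1 and Hdac4 passed in all 3 fits, and the other filled points belong to 1 fit each.

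Within B6, the mice with high cortical markers were further from the other B6 mice than those were from each other. The measure is a mean over genes and does not tell how many genes differed. The mean chi-square per gene lay between 85.5 and 119 for pairs across these 2 sets of mice. It lay between 19.1 and 23.8 among the other B6 mice. The direction varied between the histone deacetylases. B6 replicates 3 and 5 were both below the other 3 B6 mice for Hdac1, Hdac2, Hdac3, Hdac6 and Hdac11, and both above them for Hdac5, Hdac7 and Hdac9, while Hdac4 and Hdac8 overlapped. These differences, taken as mean log2 values, were -0.15 for Hdac1 and 0.32 for Hdac9, and that of Hdac4 was 0.04. They are given without a test, since these 2 mice were set apart after their marker levels had been seen. The share of all genes with such a separation is not given here, so it is not read as particular to these enzymes.

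**Figure D4:**
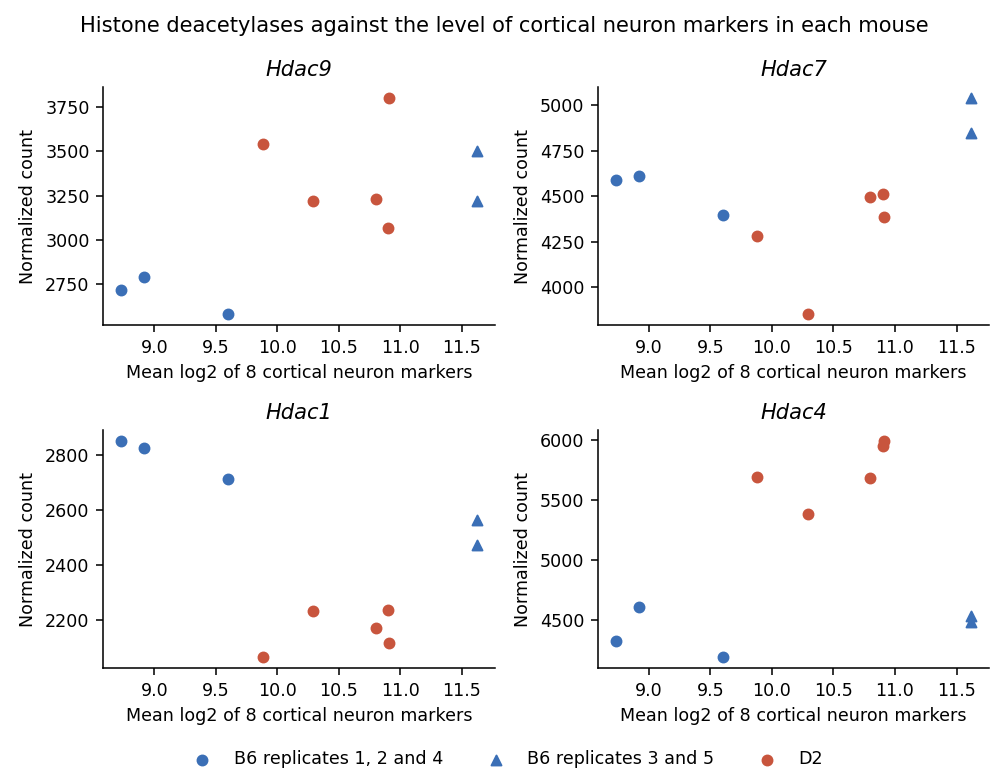
Normalized counts of 4 members (vertical axes, which do not start at 0) against the mean log2 normalized count of 8 cortical neuron markers in each mouse (horizontal axes). Points are mice (B6 blue, with replicates 3 and 5 as triangles at the right end at 11.62, D2 red). Hdac9 and Hdac7 are higher, and Hdac1 lower, in B6 replicates 3 and 5 than in the other B6 mice, and the strains are apart for Hdac1 and Hdac4.

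The ratio of 2 genes within a library does not depend on how libraries are scaled to each other. Of the 12 pairs within class I and within class IIa, the log2 count ratios of 6 did not overlap between the strains. Among all pairs of the 10049 genes in the same range of counts, 21.9% did not overlap. Of the 6 pairs, 5 contained Hdac1 or Hdac4, and pairs that share a gene are not independent. The log2 ratio of Hdac1 to Hdac2 counts lay between -1.79 and -1.67 in B6 and between -2.03 and -1.91 in D2, a mean difference of -0.23. The difference was -0.39 for Hdac1 to Hdac3 and -0.33 for Hdac1 to Hdac8. In all 3 pairs the ratio was lower in every D2 mouse than in every B6 mouse.

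The log2 ratio of Hdac4 to Hdac7 counts lay between -0.17 and -0.001 in B6 and between 0.34 and 0.48 in D2, the largest difference of the 12 pairs at 0.50. For Hdac4 to Hdac5 the values were between -2.09 and -1.83 in B6 and between -1.75 and -1.53 in D2, a difference of 0.38. Both ratios carry the uncertainty of the Hdac5 and Hdac7 counts from genes on the opposite strand. The ratio of Hdac4 to Hdac9 overlapped, with a difference of 0.18. The remaining pair without overlap was Hdac2 to Hdac3, with a mean of -0.06 ± 0.02 in B6 and -0.21 ± 0.05 in D2 (SD, n = 5).

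**Figure D5:**
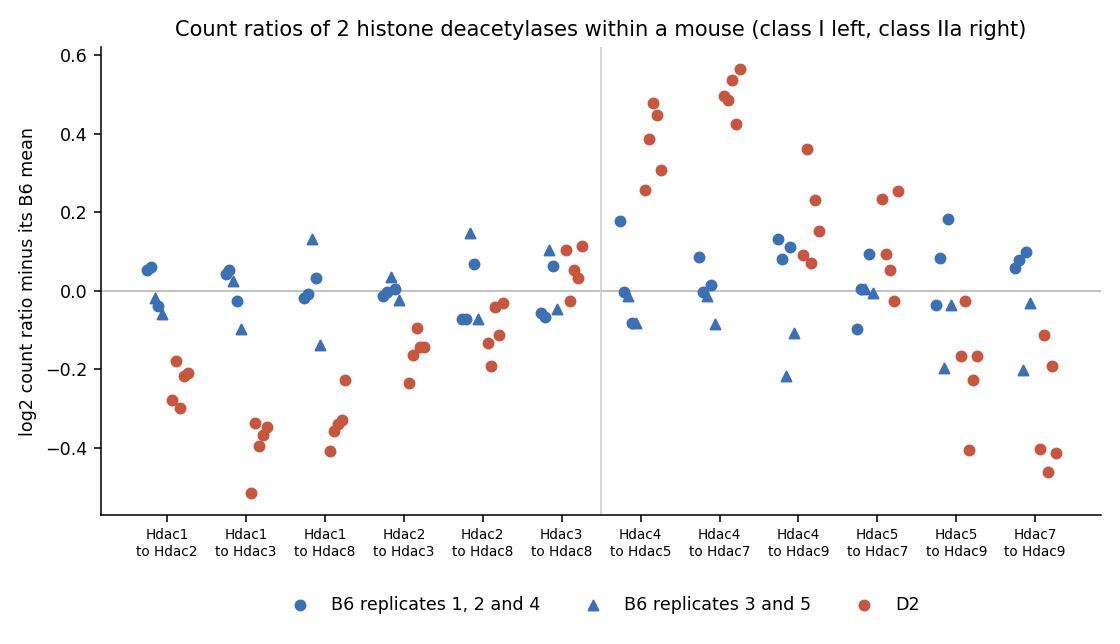
Log2 ratio of the counts of 2 members in each mouse, minus the B6 mean of that ratio, for the 6 pairs of class I and the 6 pairs of class IIa. Points are mice (B6 blue, with replicates 3 and 5 as triangles, D2 red). The strains are separate for the 3 pairs with Hdac1, for Hdac2 to Hdac3, and for Hdac4 to Hdac5 and to Hdac7.

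The 200 bases before the annotated start of the canonical transcript were read from GRCm39 for each member, and those of Hdac4 and Hdac1 are shown because these genes differed between the strains. The sequence is that of the B6 reference, and D2 alleles were not analysed here. For Hdac4 all 200 bases are shown (chr1:92108064-92108263, reverse strand). They lie inside the annotated gene, since longer transcripts start further upstream, and overlap no annotated exon. For Hdac1, the 120 bases next to the canonical start are exonic in longer transcripts of the gene and are left out, and the 80 bases before the outermost annotated start are shown (chr4:129436632-129436711, reverse strand). Both run 5′ to 3′, with GC boxes (GGGCGG, a motif bound by SP1) in capitals, of which the 80 bases of Hdac1 hold none.
Hdac4: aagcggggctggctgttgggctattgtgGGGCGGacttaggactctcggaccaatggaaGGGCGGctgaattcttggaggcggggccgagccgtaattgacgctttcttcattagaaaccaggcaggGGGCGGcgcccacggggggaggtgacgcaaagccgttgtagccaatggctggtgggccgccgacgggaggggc
Hdac1: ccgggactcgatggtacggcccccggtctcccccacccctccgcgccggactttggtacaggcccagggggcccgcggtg

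On either strand, a GC box was found 3 times in the 200 bases before the canonical start of Hdac4, and 1 time in those of Hdac1, within the bases left out above. At least 1 was present for 6 of the 10 members, and for 34.8% of 21770 protein-coding genes. The members had a median of 12.5 CpG dinucleotides and 60.2% G and C in this window, where all protein-coding genes had 7 and 54.5%. Hdac8 and Hdac9 had 2 CpG dinucleotides each, Hdac1 had 20 and Hdac4 had 16. Like that of Hdac4, the windows of Hdac6, Hdac7 and Hdac9 lie wholly inside their annotated genes. That of Hdac9 ends at 34579490, and the gene extends to 34967094, so its values are those of an internal start. CCAAT (either strand) was present in 5 of the 10 members, and in 32.3% of all. TATAAA (9.57% of all promoters), TGACGTCA (1.59%) and CACGTG (5.43%), each searched on both strands, were found in none of the 10 windows.

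Of the genes that start within 1 Mb of Hdac1, 63 were tested and 16 passed (25.4%), 5 as higher and 11 as lower in D2. Near Hdac4, 5 of 40 passed (12.5%), 4 of them as higher in D2. Around Hdac3, whose strain difference did not pass, 31 of 95 genes did (32.6%), and around Hdac6 1 of 54 (1.85%). Over all genes, 18.3% passed, 8.5% as higher and 9.83% as lower in D2. Genes in the same region share the haplotype of their strain and are not independent of each other.

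Genes that work with these enzymes were described by 10 lists with 83 genes. Of them 15 passed (18.1%), 7 as higher and 8 as lower in D2, next to the 18.3% over all genes. The median log2 fold change of the 83 genes was 0.01, and that of all genes 0.0036. In the SIN3 complex, 1 gene was higher and 2 were lower of 15. Arid4b, a chromatin-binding subunit, rose from 8144 ± 614 to 9294 ± 514 normalized counts (SD, n = 5, log2 fold change 0.19, edgeR adjusted p = 0.027), which was lost without B6 replicates 3 and 5 (adjusted p = 0.085). Sap18 and Sap130, which are further subunits, had log2 fold changes of -0.13 and -0.11.

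In the NuRD complex, 1 of 10 genes passed, namely Mbd2, which binds methylated DNA and was lower in D2 (log2 fold change -0.13). In the CoREST list, 1 of 8 passed, the scaffold gene Rcor3, which was higher (0.14), and of the 5 NCoR/SMRT genes 0 passed in edgeR's test, 0 had an unadjusted p under 0.05 and 0 passed in DESeq2. Among 6 genes of MiDAC, a complex of Hdac1 and Hdac2, and of the MIER proteins, Mier3 alone passed. It rose from 3253 ± 142 to 4173 ± 209 counts (SD, n = 5, log2 fold change 0.36, edgeR adjusted p = 6.9e-05). Of 10 histone acetyltransferases, the enzymes that add the marks, only Hat1 passed. It was lower in D2, with a log2 fold change of -0.20.

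Around the class IIa enzymes, 1 of 4 MEF2 factors, 2 of 7 14-3-3 proteins and 2 of 11 kinases passed. The MEF2 factor was Mef2b, named after its values were seen because its counts were low, with 15, 27, 24, 26 and 37 in B6 and 60, 67, 60, 56 and 35 in D2 (log2 fold change 1.11, edgeR adjusted p = 0.0051). Camk1, a calcium- and calmodulin-dependent kinase, rose from 4582 ± 612 to 6631 ± 375 counts (SD, n = 5, log2 fold change 0.53, edgeR adjusted p = 0.00033). Sik3, a salt-inducible kinase, had a log2 fold change of -0.10. Of the 14-3-3 genes, Sfn fell from 312 ± 14 to 107 ± 19.2 counts (log2 fold change -1.54), and Ywhaq, which is far more abundant, fell from 22721 ± 1131 to 19447 ± 507 (log2 fold change -0.22). Among the 7 sirtuins, the NAD-dependent deacetylases of the other family, Sirt4 was lower in D2 (-0.27), and Sirt3 (0.19) and Sirt6 (0.17) were higher. Both directions occurred in the sirtuins, in the SIN3 complex and in the kinases, as they did in the histone deacetylases.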

How the data were processed

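RNA from the NAc of 5 B6 and 5 D2 mice was studied, with each mouse as a replicate. Raw counts, 1 value per gene and mouse, were deposited. Per the paper's methods and the submitters' processing notes, the authors trimmed reads with fastp, aligned both strains to the B6 genome (Ensembl, GRCm39) with STAR 2.7.10b, sorted alignments with SAMtools 1.6, counted reads with featureCounts and removed genes with a median of 0. Reads with D2 alleles can align less well to a B6 genome, and this was not measured here.

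Of 29883 genes, 29519 matched the GENCODE annotation of GRCm39 by Ensembl ID, all 10 members included. No further filter was used. Counts were fitted with edgeR 4.0.16 in R 4.3.3 (TMM, quasi-likelihood F test, two-sided, strain as the factor). P-values were adjusted by Benjamini-Hochberg across the whole table, and the threshold was 0.05. Standard errors are the absolute log2 fold change over the square root of F. Alternatives were DESeq2 1.42.0, other scalings, filterByExpr, the replicate number as a block, the mean log2 level of 8 cortical markers as a covariate, and each mouse left out. Leaving out B6 replicates 3 and 5 together was chosen after seeing the data. No pair of libraries of a strain agreed within sampling noise. B6 replicates 3 and 5 were by far the closest pair, with a mean chi-square per gene of 4.89. All other pairs of a strain lay between 17.5 and 119. How the closeness of these 2 libraries arose was not tested. The fitting scripts were tested on simulated data whose planted changes were larger than those of the 10 enzymes. That test therefore says nothing about how well changes of their size are found.

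The members, the gene lists and the markers were chosen with earlier results of these data known. Named were all members and, per list, up to 4 called genes whose mean reached 100 counts, the largest changes first. Python 3.11.15 with numpy 2.4.6, pandas 2.3.3 and matplotlib 3.10.9 was used.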

Additional observations from a re-analysis of the deposited data

How the results depend on the processing

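Hdac1 and Hdac4 passed in all 18 alternatives, with log2 fold changes between -0.37 and -0.28 and between 0.35 and 0.41. The number of histone deacetylases called was 2 in most of them, 6 with the cortical neuron level as a covariate (Hdac1, Hdac3, Hdac4, Hdac6, Hdac7 and Hdac11, where 26.1% of all genes passed), 4 with B6 replicates 3 and 5 left out together (Hdac1, Hdac2, Hdac4 and Hdac9, where 19.2% of all genes passed), and 2 to 3 when any single mouse was omitted. The cause of these changes was not tested. The number of genes called lay between 4636 and 5676 when any single mouse was omitted. Directions turned for 3 members, whose log2 fold changes passed in neither of the fits compared. Hdac5 was at 0.03 under total counts, at 0.04 without B6 replicates 3 and 5, and at 0.002, 0.01, 0.02 and 0.002 without B6 replicate 3, B6 replicate 5, D2 replicate 4 or D2 replicate 5 (range over single omitted mice -0.03 to 0.02). Hdac8 ranged from -0.03 to 0.05 over single omitted mice. It was at -0.03 without B6 replicate 3 and also without both B6 mice, where Hdac11 was at -0.002. Replicate numbers did not pair the mice, since same-numbered mice had correlations of their deviations between -0.407 and 0.368, and 2 of the 5 B6 mice correlated best with the D2 mouse of their number. With the replicate block, 2 histone deacetylases were called, Hdac1 and Hdac4, and 4731 genes in all in place of 5478. With the longest transcript as the length, Hdac5 ranked above Hdac3, and Hdac8 above Hdac9, in level. The highest and lowest means over all mice were then 91.6 for Hdac11 and 3.4 for Hdac9, so the 43.0-fold span above holds for merged exon length only.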

Other observations

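The MEF2 factors, which class IIa histone deacetylases repress, had summed normalized counts of 96601 and 94861 in B6 replicates 3 and 5, between 74530 and 82473 in the other B6 mice, and between 77666 and 91319 in D2. In the same 2 mice, 3 of the 4 MEF2 factors were above the other B6 mice, as were 7 of the 8 cortical neuron markers, 6 of the 8 oligodendrocyte markers and 5 of the 7 endothelial markers, while 8 of the 10 striatal neuron markers were below them. Of the SIN3 genes, 7 of 15 were below and 2 above. These values are given without a test, as the mice were set apart by their cortical markers. The share of all genes above or below in these 2 mice is not given here, so the counts have no background.

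Of the other marker lists, 0 of 4 interneuron markers passed between the strains in edgeR's test (1 had an unadjusted p under 0.05 and 1 passed in DESeq2), 3 of 7 astrocyte markers (1 higher and 2 lower in D2), 2 of 7 microglial markers (1 in each direction), 1 of 4 markers of choroid plexus and ependyma (lower) and 2 of 4 blood markers (lower). The 8 cortical neuron markers, of which 0 passed in edgeR's test (1 had an unadjusted p under 0.05 and 0 passed in DESeq2), had a median log2 fold change of -0.05.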
